A study of Mus musculus with 34 samples.

Results

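Mfge8 and 9 genes that mark the homeostatic state of astrocytes (Aqp4, Slc1a2, Slc1a3, Glul, Aldh1l1, Gja1, Gjb6, Aldoc and Kcnj10) were followed across 34 RNA-seq libraries of mouse hippocampus. They were taken by gene symbol, 10 of the 55385 genes in the files, and all 10 passed the filter on low counts that left 17518 genes. All mice were 6 months old, 16 libraries were from females and 18 from males, and the mice were of 4 genotypes. In 5xFAD-Dp16 mice the 5xFAD transgenes were combined with the Dp16 segment, 5xFAD mice carried the transgenes alone, Dp16 mice carried the segment alone, and wild-type (WT) mice were C57BL/6J. By general knowledge of these strains, 5xFAD transgenes carry human familial Alzheimer's disease mutations and are driven by Thy1 promoter sequences, which are active in neurons. Dp16 mice carry an extra copy of a stretch of mouse chromosome 16 that is orthologous to part of human chromosome 21, as a model of Down syndrome. Mice received tofacitinib, an inhibitor of Janus kinases, at 15 mg/kg by daily gavage for a month, or the vehicle, methylcellulose at 0.5% (sham). There were 4 5xFAD-Dp16, 5 5xFAD, 5 Dp16 and 5 WT libraries with tofacitinib, and 3 5xFAD-Dp16, 4 5xFAD, 3 Dp16 and 5 WT libraries with sham. The labels did not say more of the animals, such as litters, so p-values measure the spread between these libraries.

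Astrocytes clear glutamate and potassium from around synapses, move water at their endfeet on blood vessels and share ions and metabolites through gap junctions. The 9 marker genes encode parts of this housekeeping, and loss of expression of some of them has been described in astrocytes of injured or diseased brain. Mfge8 encodes a secreted bridging protein that binds phosphatidylserine on dying cells and integrins on phagocytes, so that the phagocyte can engulf the cell. In the brain it is made largely by astrocytes.

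The libraries held 14.9 to 21.1 M counts each, with 17.8 M at the median. Ifnar1, a gene within the duplicated stretch, was at 51.5 to 64.4 counts per M counts (CPM) in the 15 libraries with the segment and at 31.1 to 41.9 CPM in the 19 without it, as labelled. Thy1, whose sequences drive the transgenes, was at 1000 to 2840 CPM in the 16 libraries with the transgenes and at 757 to 953 CPM in the 18 without. In 3 libraries the mean of 16 dentate, CA1 and CA3 markers was low: 3.95 log2 CPM in 5xFAD-Dp16 sham replicate 4, 4.09 in 5xFAD tofacitinib replicate 2 and 3.67 in WT tofacitinib replicate 3, against 5.31 to 6.23 in the other 31. Their mean of 10 striatal markers was 3.93, 6.92 and 6.15 log2 CPM in the same order, against 2.96 to 4.84 in the other 31. The first of these lay within that range. Means of thalamus and habenula markers were 4.96, 6.31 and 3.24 log2 CPM in the same order, against 3.48 to 4.56 in the other 31. By their hippocampal markers the 3 libraries thus stood apart, though the other regions' markers differed among them. Values were also computed for the other 31. In bulk tissue, fewer cells of a type and less RNA per cell cannot be told apart.

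The sequence before the start of each gene is shown for Mfge8, the gene on which the results turn, and for the 3 genes whose windows held a motif of the pathway that tofacitinib blocks. RefSeq (GRCm38.p6) gave a start for 9 of the 10 genes, and the windows are the 250 bases before it, 5′ to 3′ on the gene's strand. Capitals mark matches, on either strand, to GAS (TTCNNNGAA), the element that STAT dimers bind, or to the core of the interferon-stimulated response element, taken as 2 GAAA blocks with 2 bases of any kind between them. The Mfge8 window lies at chr7:79149061-79149310 (minus strand), the Slc1a3 window at chr15:8710808-8711057 (minus strand), the Aldoc window, from the second of 2 listed starts, at chr11:78323948-78324197 (plus strand) and the Glul window at chr1:153899679-153899928 (plus strand).
Mfge8: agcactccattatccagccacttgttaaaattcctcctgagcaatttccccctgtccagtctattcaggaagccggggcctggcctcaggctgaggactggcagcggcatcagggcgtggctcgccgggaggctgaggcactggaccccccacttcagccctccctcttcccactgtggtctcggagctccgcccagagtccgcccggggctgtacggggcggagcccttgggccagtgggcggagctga
Slc1a3: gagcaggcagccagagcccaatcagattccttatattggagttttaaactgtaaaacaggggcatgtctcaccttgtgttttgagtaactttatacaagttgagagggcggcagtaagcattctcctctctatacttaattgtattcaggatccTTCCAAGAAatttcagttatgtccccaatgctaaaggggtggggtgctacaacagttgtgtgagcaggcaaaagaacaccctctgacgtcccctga
Aldoc: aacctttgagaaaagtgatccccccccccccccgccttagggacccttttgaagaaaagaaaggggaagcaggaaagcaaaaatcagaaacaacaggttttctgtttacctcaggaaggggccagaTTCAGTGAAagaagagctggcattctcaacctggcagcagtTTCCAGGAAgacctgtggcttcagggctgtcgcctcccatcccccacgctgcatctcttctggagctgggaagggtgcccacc
Glul: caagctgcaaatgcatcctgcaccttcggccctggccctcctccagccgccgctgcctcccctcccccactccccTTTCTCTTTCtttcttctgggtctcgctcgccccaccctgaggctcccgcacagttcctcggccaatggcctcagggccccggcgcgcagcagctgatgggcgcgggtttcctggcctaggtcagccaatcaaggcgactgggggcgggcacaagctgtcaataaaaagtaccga
The Mfge8 window held neither motif. The Slc1a3 window held 1 GAS match, which began 96 bases before the start, and the Aldoc window held 2, the first of which began 124 bases before it. The Glul window held 1 match to the response element on the other strand, 175 bases before the start. Among all 32851 windows of this length, 7.02% held a GAS match and 2.98% a match to the response element. The windows of Aldh1l1, Gja1, Gjb6, Kcnj10 and Slc1a2 held neither, nor did the window before the first listed Aldoc start. A match in letters is a description and no measure of binding.

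Mfge8 fell with the Dp16 segment, and it was the only gene of the 10 that passed the test for the segment. In 5xFAD-Dp16 hippocampus it had 83.8, 75.7, 75 and 77.2 RPKM (reads per kilobase per M counts) with tofacitinib and 69.5, 78.4 and 43 RPKM with sham. In Dp16 hippocampus it had 88.1, 114, 66.3, 71.2 and 80.9 RPKM with tofacitinib and 75.9, 71.8 and 76.1 RPKM with sham. In 5xFAD hippocampus it had 107, 64.4, 100, 109 and 96.2 RPKM with tofacitinib and 114, 104, 108 and 96.3 RPKM with sham, and in WT hippocampus 108, 120, 102, 110 and 119 RPKM with tofacitinib and 117, 118, 117, 106 and 92 RPKM with sham. The 2 sets overlapped through few libraries. Among the 31 libraries, those with the segment ran from 66.3 to 114 RPKM and those without it from 92 to 120 RPKM, and 13 of the 14 with the segment lay below every library without it. The exception was Dp16 tofacitinib replicate 2, at 114 RPKM, and the next highest of the libraries with the segment was at 88.1 RPKM. That library had 64 CPM of Ifnar1, within the range of the other libraries with the segment.

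**Figure D1:**
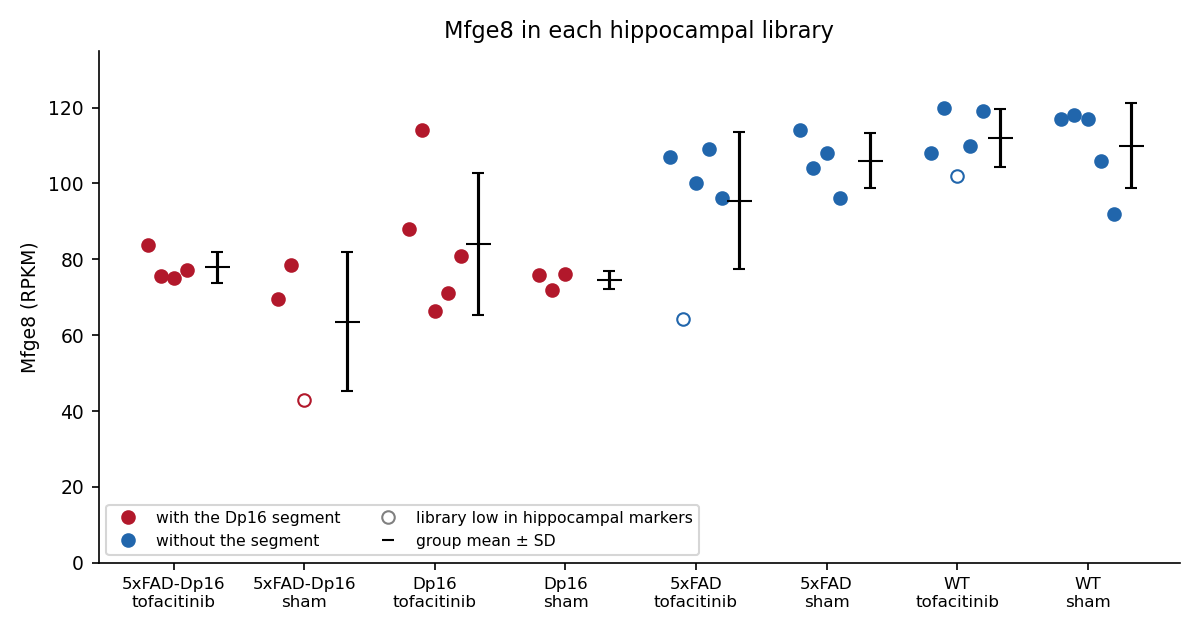
Mfge8 (RPKM, axis from 0) in every library by group, with tofacitinib left of sham. Each point is 1 library, open points are the 3 libraries low in hippocampal markers, and dashes with bars are group means ± SD; groups with the segment average 63.6 to 84.1 RPKM and groups without it 95.5 to 112 RPKM.

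Over all libraries Mfge8 averaged 76.5 ± 14.5 RPKM with the segment (SD, n = 15) and 106 ± 13 RPKM without it (SD, n = 19). The segment main effect, the mean difference over the 4 settings of transgenes and treatment, was a log2 fold change of -0.54 (SE 0.08, 0.69-fold; adjusted p = 9.4e-05, edgeR quasi-likelihood test with Benjamini-Hochberg adjustment over 17518 genes). This was 1 of 10 genes called at an adjusted p under 0.05, against 1.38% of all genes tested in either direction and 0.48% in the downward direction. In the 31 libraries the log2 fold change was -0.51 (SE 0.06, adjusted p = 2.33e-07), with 1 of 10 genes called against 1.89% of all genes. Leaving out each library in turn kept it between -0.59 and -0.46.

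Mfge8 was lower with the segment in each of the 4 comparisons of single groups that differ by it, and 1 of the 4 passed over the 34 libraries. With sham, 5xFAD-Dp16 against 5xFAD gave a log2 fold change of -0.81 (adjusted p = 0.0361), and Mfge8 was 1 of 10 genes called, against 0.268% of all genes. That call rests on few libraries: in the 31 libraries the value was -0.58 (adjusted p = 0.0839, 0 of 10 genes called against 0.151% of all genes), and leaving out WT sham replicate 2, 5xFAD sham replicate 1, 2 or 3, or 5xFAD-Dp16 sham replicate 4 also ended it (adjusted p up to 0.789). Dp16 against WT gave -0.58 with sham (adjusted p = 0.245) and -0.44 with tofacitinib (adjusted p = 0.554), with 0 of 10 genes called in each (1 unadjusted in each), against 0.308% and 0.268% of all genes. In the 31 libraries both passed, at -0.58 (adjusted p = 0.00465) and -0.45 (adjusted p = 0.0264), where 0.666% and 0.313% of all genes were called. With tofacitinib, 5xFAD-Dp16 against 5xFAD gave -0.32 (adjusted p = 0.999; 0 of 10 genes called, against 0.217% of all genes), and -0.45 in the 31 libraries (adjusted p = 0.0612).

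Mfge8 was also lower in the combined genotype than in WT hippocampus. With sham the log2 fold change was -0.83 (SE 0.17, adjusted p = 0.00899), and Mfge8 was 1 of 10 genes called, against 0.959% of all genes. Without 5xFAD-Dp16 sham replicate 4, which had 43 RPKM, the adjusted p was 0.204 at -0.59, while in the 31 libraries it was 0.0153 at -0.61, with 0.475% of all genes called. With tofacitinib the log2 fold change was -0.54 (adjusted p = 0.136; 0 of 10 genes called, against 0.537% of all genes), and in the 31 libraries -0.56 (adjusted p = 0.00234, 0.705% of all genes called). These comparisons share control libraries with those above.

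The transgenes alone were not seen to move Mfge8. With sham it averaged 106 ± 7.29 RPKM in 5xFAD hippocampus (SD, n = 4) and 110 ± 11.3 RPKM in WT hippocampus (SD, n = 5), a log2 fold change of -0.02 (SE 0.15, adjusted p = 1; 0 of 10 genes called, 0.445% of all genes). With tofacitinib 5xFAD against WT gave -0.23 (SE 0.14, adjusted p = 0.749; 0 of 10 genes called, 0.32% of all genes), and -0.11 in the 31 libraries. In 5xFAD-Dp16 against Dp16 hippocampus the log2 fold changes of Mfge8 were -0.26 with sham (SE 0.185, adjusted p = 0.778; -0.03 in the 31 libraries) and -0.11 with tofacitinib (SE 0.15, adjusted p = 1). Of all genes, 0% and 0.0285% were called in these comparisons, and 0 of 10 of this set in each. The difference of the segment's effect with and without the transgenes was -0.06 on the log2 scale (SE 0.16, adjusted p = 0.977), and 0% of all genes passed that test.

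Other genes were also compared between libraries with and without the segment. The agouti gene (a), at which C57BL/6J mice carry the nonagouti allele, had 18 to 61 counts in each of the 15 libraries with the segment. It had 0 counts in 17 of the 19 without it and at most 9 in the rest. This gene was chosen after its values were seen, and whether other alleles differ between the lines, and their part in the Mfge8 difference, was not tested. Mfge8 lies at chr7:79133768-79149060 on the minus strand of GRCm38, outside the duplicated stretch. Of 30 other tested genes within 1 Mb on either side, 0 were called for the segment, against 1.38% of all genes. For a list of this size 0 is near the share of all genes. An unadjusted p under 0.05 was found for 4 of the 30, against 2241 of all 17518 genes. The nearest neighbour of Mfge8, Hapln3, had a log2 fold change of -0.15 (SE 0.205, adjusted p = 0.847), and Abhd2, on the other side, -0.12 (SE 0.08, adjusted p = 0.574).

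Markers of other cell types gave these values for the segment in edgeR, where 1.38% of all genes were called. An unadjusted p under 0.05 was found for 2241 of all 17518 genes. Of 10 microglial markers, 0 were called (3 at an unadjusted p under 0.05, 0 by DESeq2), all 10 log2 fold changes were below 0 and their median was -0.16. Their mean level was 5.06 to 5.91 log2 CPM with the segment and 5.05 to 6.46 without it. Of 8 oligodendrocyte markers 1 was called, Mobp, a myelin protein gene (0.43, SE 0.11, adjusted p = 0.0307), and all 8 were above 0. Of 10 striatal markers 0 were called (3 unadjusted, 0 by DESeq2), with a median of -0.74. Their mean level was 2.97 to 4.84 log2 CPM with the segment and 2.96 to 6.92 without it, or 2.96 to 3.49 without it among the 31 libraries. Ependymal and choroid plexus markers had 0 called (1 unadjusted, 0 by DESeq2). Their mean level was 1.47 to 5.05 log2 CPM with the segment (median 3.84) and 0.2 to 5.26 without it (median 2.55). Neuron, endothelial and mural, thalamus and habenula, and neocortex markers had 0 called. Dentate, CA1 and CA3 markers had 0 called, or 1 in the 31 libraries. The part of these cell types and regions in the Mfge8 difference was not tested.

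**Figure D2:**
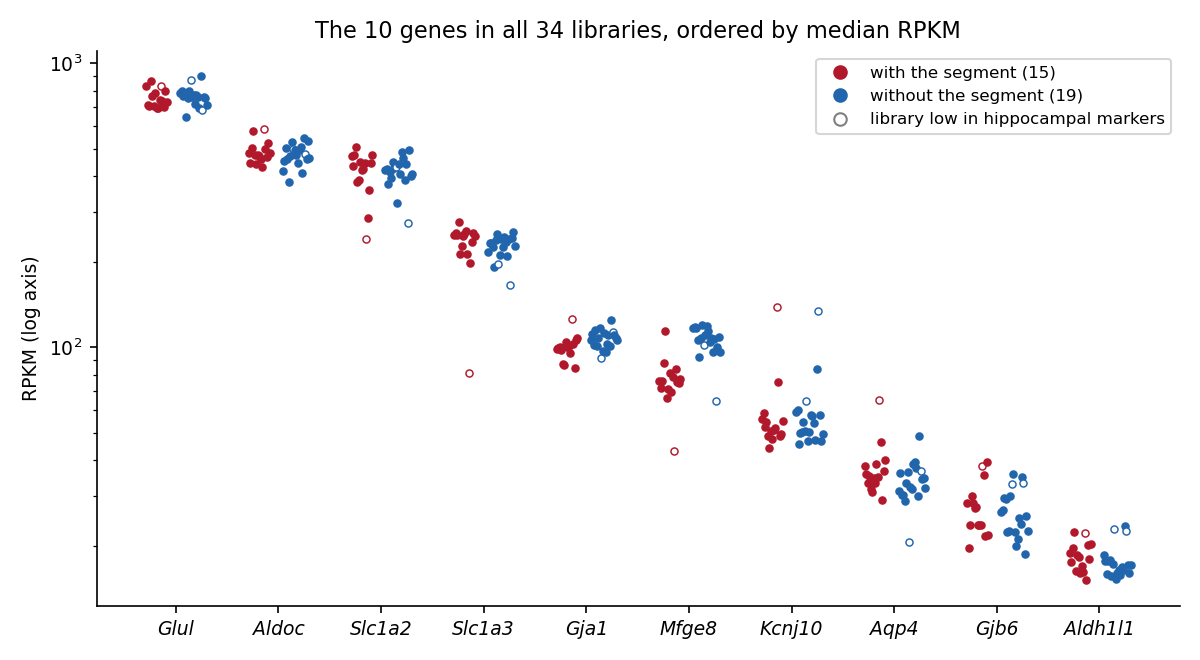
RPKM (log axis) of the 10 genes in the 34 libraries, ordered by median; each point is 1 library, open points are the 3 libraries low in hippocampal markers. Mfge8 is the gene whose libraries with the segment sit mostly below those without it.

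The 10 genes spanned a wide range of expression. By median RPKM over 34 libraries the order was Glul (760), Aldoc (476), Slc1a2 (424), Slc1a3 (234), Gja1 (103), Mfge8 (96.2), Kcnj10 (52.1), Aqp4 (34.7), Gjb6 (25.9) and Aldh1l1 (17.4). Each gene exceeded the next in 30 to 34 libraries, except that Gja1 exceeded Mfge8 in 22. The order of Gja1 and Mfge8 thus varied among the 34 libraries, which pool those with and without the segment. With the segment Gja1 ran from 84.6 to 126 RPKM and Mfge8 from 43 to 114 RPKM. Without it Gja1 ran from 91.7 to 125 RPKM and Mfge8 from 64.4 to 120 RPKM.

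For glutamate uptake, the transporter genes Slc1a2 and Slc1a3 overlapped between libraries with and without the segment. Slc1a2 ran from 241 to 507 RPKM with the segment (median 436) and from 274 to 496 RPKM without it (median 420). Slc1a3 ran from 80.9 to 276 RPKM with the segment (median 247) and from 165 to 254 RPKM without it (median 232). The lowest value of each was in 5xFAD-Dp16 sham replicate 4, and without the 3 libraries the lowest Slc1a3 value was 192 RPKM. Glul, which encodes the glutamine synthetase that converts the glutamate taken up, ran from 693 to 864 RPKM with the segment (median 738) and from 647 to 901 RPKM without it (median 762). In relation to its mean Glul was the steadiest of the 10, with a coefficient of variation of 7.54% over 34 libraries.

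The endfoot genes Aqp4, a water channel, and Kcnj10, an inwardly rectifying potassium channel, varied most through the 3 libraries. Over all 34 the coefficient of variation of Kcnj10 was 35.9%, and over the 31 it was 15.2%. It was at 138 RPKM in 5xFAD-Dp16 sham replicate 4 and at 134 RPKM in 5xFAD tofacitinib replicate 2, against 44.3 to 83.8 RPKM in the 31. Aqp4 was at 65.4 RPKM in 5xFAD-Dp16 sham replicate 4 and at 20.7 RPKM in WT tofacitinib replicate 3, against 28.8 to 48.8 RPKM in the 31. The Aqp4 log2 fold change for the segment was 0.14 (SE 0.08, adjusted p = 0.47), and 0.01 in the 31 libraries (SE 0.06, adjusted p = 0.953).

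The gap junction genes Gja1 and Gjb6 encode the main connexins of astrocytes. Gja1 averaged 99.9 ± 10.1 RPKM with the segment (SD, n = 15) and 107 ± 7.92 RPKM without it (SD, n = 19), a log2 fold change of -0.09 (SE 0.05, adjusted p = 0.432). In the 31 libraries the change was -0.12 (SE 0.05, unadjusted p = 0.0166, adjusted p = 0.229), which did not pass. Gjb6 averaged 27.5 ± 6.05 RPKM with the segment and 26.5 ± 5.18 RPKM without it. Of the metabolic genes, Aldoc, a glycolytic aldolase, averaged 488 ± 45.3 RPKM with the segment and 474 ± 42.2 RPKM without it. Aldh1l1, a folate enzyme and common astrocyte marker, averaged 18.4 ± 2.19 RPKM with the segment and 17.7 ± 2.48 RPKM without it. For the segment the 9 genes ran from -0.09 to 0.14 on the log2 scale, with a median of 0.00, like the median of all genes tested, and the smallest of their adjusted p was 0.432.

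**Figure D3:**
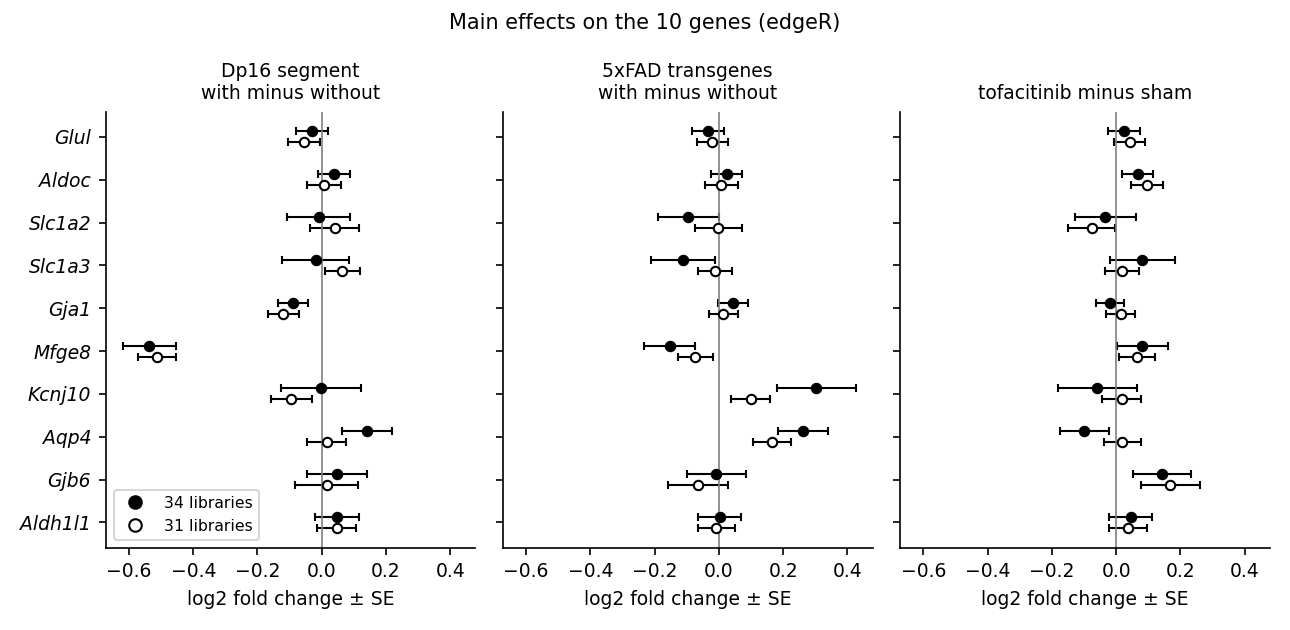
Log2 fold change ± SE of the 10 genes for the segment, the 5xFAD transgenes and tofacitinib, from edgeR on 34 libraries (filled) and on 31 (open). For the segment Mfge8 stands at -0.54 and the other 9 genes between -0.09 and 0.14.

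For the 5xFAD transgenes, the highest of the 9 were Kcnj10 and Aqp4, and neither passed. Aqp4 had 28.9, 37.3 and 65.4 RPKM (lowest, median and highest) with the transgenes and 20.7, 32.7 and 38.2 RPKM without them. Its main effect was a log2 fold change of 0.26 (SE 0.08, adjusted p = 0.0904), and 0.17 in the 31 libraries (SE 0.06, adjusted p = 0.265). Kcnj10 had 46.7, 54.7 and 138 RPKM with the transgenes and 44.3, 50.7 and 64.9 RPKM without them, a log2 fold change of 0.30 (SE 0.12, adjusted p = 0.342), and 0.10 in the 31 libraries (SE 0.06). Both sets overlapped for both genes. Of the 10 genes, 0 were called for the transgenes in edgeR, against 1.59% of all genes, and 2 had an unadjusted p under 0.05. DESeq2 called 1, Aqp4 (adjusted p = 0.0495). Mfge8 was at -0.15 (SE 0.08, adjusted p = 0.501), and at -0.07 in the 31 libraries.

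In 5xFAD-Dp16 against WT sham hippocampus the same pair depended on 1 library. Aqp4 had 38.7, 34.8 and 65.4 RPKM in 5xFAD-Dp16 libraries and 31.2, 36.2, 30.1, 30.2 and 28.8 RPKM in WT libraries, a log2 fold change of 0.52 (adjusted p = 0.112), and 0.18 in the 31 libraries (adjusted p = 0.798). Kcnj10 had 51, 52 and 138 RPKM in 5xFAD-Dp16 libraries and 59.3, 60.2, 45.5, 49.9 and 50.2 RPKM in WT libraries, a log2 fold change of 0.55 (adjusted p = 0.323). Without 5xFAD-Dp16 sham replicate 4 the values were 0.16 for Aqp4 and -0.19 for Kcnj10.

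Tofacitinib was not seen to change any of the 10 genes. Over all genotypes Mfge8 averaged 93.1 ± 18.4 RPKM with tofacitinib (SD, n = 19) and 92.5 ± 22.4 RPKM with sham (SD, n = 15), a log2 fold change of 0.08 (SE 0.08, adjusted p = 0.825). The other 9 genes ran from -0.10 to 0.14 on the log2 scale, with their smallest adjusted p at 0.707. The main effect and the comparisons within 5xFAD-Dp16, 5xFAD, Dp16 and WT hippocampus called 0 of 10 genes each, by edgeR and by DESeq2, with 0 at an unadjusted p under 0.05 in edgeR. Of all genes, edgeR called 0% for the main effect, 0% in 5xFAD-Dp16, 5xFAD and WT mice, and 0.00571% in Dp16 mice. Within 5xFAD-Dp16 hippocampus Mfge8 averaged 77.9 ± 4.04 RPKM with tofacitinib (SD, n = 4) and 63.6 ± 18.4 RPKM with sham (SD, n = 3), or 73.9 ± 6.24 RPKM with sham without replicate 4 (SD, n = 2). Its log2 fold change there was 0.32 (SE 0.175, adjusted p = 0.698), and 0.09 in the 31 libraries.

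Nor did the response to tofacitinib pass a test of difference between genotypes. The difference between mice with and without the segment was 0.32 on the log2 scale for Mfge8 (SE 0.16, adjusted p = 0.763), and 0.13 in the 31 libraries. For Kcnj10 it was -0.52 (SE 0.245, unadjusted p = 0.0418, adjusted p = 0.758), and 0.02 in the 31 libraries. It called 0 of 10 genes and 0% of all genes. The difference between mice with and without the transgenes called 0 of 10 genes and 0% of all genes as well.

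**Figure D4:**
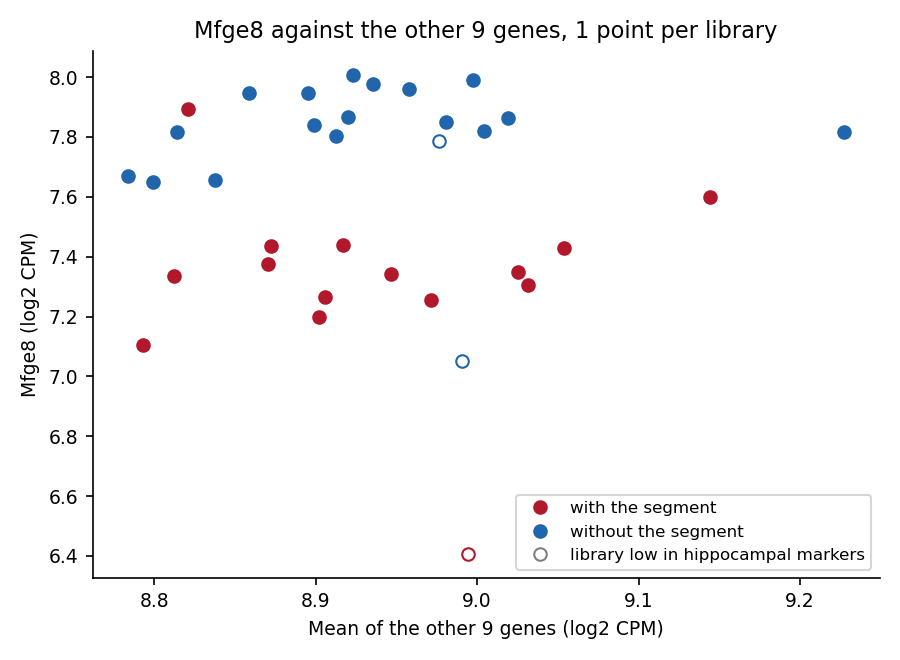
Mfge8 (log2 CPM) against the mean log2 CPM of the other 9 genes, 1 point per library, open for the 3 libraries low in hippocampal markers. The mean of the 9 covers 8.79 to 9.14 with the segment and 8.78 to 9.23 without it, while Mfge8 covers 6.41 to 7.89 with it and 7.05 to 8.01 without it.

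The mean of the other 9 genes did not separate libraries with the segment from those without it. It ran from 8.79 to 9.14 log2 CPM with the segment and from 8.78 to 9.23 log2 CPM without it, as the plot of Mfge8 against this mean shows. Within groups, the genes tended to be high or low in the same libraries. Deviations from group means were correlated over the 31 libraries for 45 pairs of the 10 genes, and 43 of the 45 correlations were above 0. The highest was between Aqp4 and Kcnj10 (Pearson r = 0.83, Spearman rho = 0.82; permutation p = 2e-05 and 3e-05, adjusted over the 45 pairs 0.0009 and 0.0013), and r was 0.79 without the 2 libraries farthest from the median of Aqp4. Slc1a2 and Slc1a3 came next (r = 0.81, rho = 0.71; permutation p = 0.00014 and 0.00049, adjusted 0.0016 and 0.0044; r = 0.69 without 2 libraries). For Mfge8 the highest r was with Glul (r = 0.46, rho = 0.55; permutation p = 0.044 and 0.007), and after adjustment 0 of its 9 pairs passed by r (0.09 for Glul), while Glul passed by rho (0.024).

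Among other genes, those most like Mfge8 over the 31 libraries were found by Pearson's r of log2 CPM over 14445 genes. They were Cbs, which encodes the cystathionine synthase of homocysteine metabolism (r = 0.83), Slc13a5, a citrate transporter gene (0.82), Ctbp1, a corepressor gene (0.81), Wnt7a, a Wnt ligand gene (0.80), and Grin2c, an NMDA receptor subunit gene (0.78). All 5 were lower with the segment, with log2 fold changes from -0.66 for Cbs to -0.18 for Ctbp1, so these r hold the difference between the sets. Within the 14 libraries with the segment r with Cbs was 0.58, and within the 17 without it -0.30. For Wnt7a these were 0.50 and 0.77. Among the 5 genes most like the mean of the other 9 were Serpine2 (r = 0.84), Qk (0.80), mt-Nd4l (0.79) and Ndrg2 (0.78). Within the 17 libraries without the segment r with Serpine2 was 0.91 and with Ndrg2 0.82.

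In a wider list of 40 homeostatic astrocyte genes, 4 passed for the segment, 1 higher and 3 lower, with a median log2 fold change of -0.05, against 1.38% of all genes called. In the 31 libraries 6 of the 40 passed, against 1.89% of all genes. Lcat, which encodes the enzyme that esterifies cholesterol on lipoproteins, had 31, 34.6 and 38.5 RPKM (lowest, median and highest) with the segment and 17, 24.9 and 30.8 RPKM without it. These sets did not overlap, and Lcat rose by a log2 fold change of 0.45 (SE 0.06, adjusted p = 5.31e-06). It also passed with tofacitinib in Dp16 against WT (0.56, adjusted p = 0.00492) and in 5xFAD-Dp16 against WT hippocampus (0.62, adjusted p = 0.00214). The test for a tofacitinib response that differs with the segment called 0% of all genes, so Lcat did not pass it. Grin2c had 7.96, 9.25 and 11 RPKM with the segment and 9.99, 11.6 and 14.4 RPKM without it (-0.35, SE 0.06, adjusted p = 0.000227). Fgfr3, a fibroblast growth factor receptor gene, fell by 0.32 on the log2 scale (SE 0.07, adjusted p = 0.0105). The sets overlapped, with Fgfr3 at 17.8 to 34.7 RPKM with the segment and 21.9 to 36.5 RPKM without it. Clu, which encodes the apolipoprotein clusterin, fell by 0.23 (SE 0.05, adjusted p = 0.0142), but without 5xFAD-Dp16 sham replicate 4 its adjusted p was 0.0522. Its sets overlapped too, at 553 to 747 RPKM with the segment and 637 to 915 RPKM without it. Of the 40 genes, 0 were called for the transgenes (5 unadjusted, 1 by DESeq2) and 0 for tofacitinib (5 unadjusted, 0 by DESeq2). Among all genes 1.59% and 0% were called, in the same order.

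**Figure D5:**
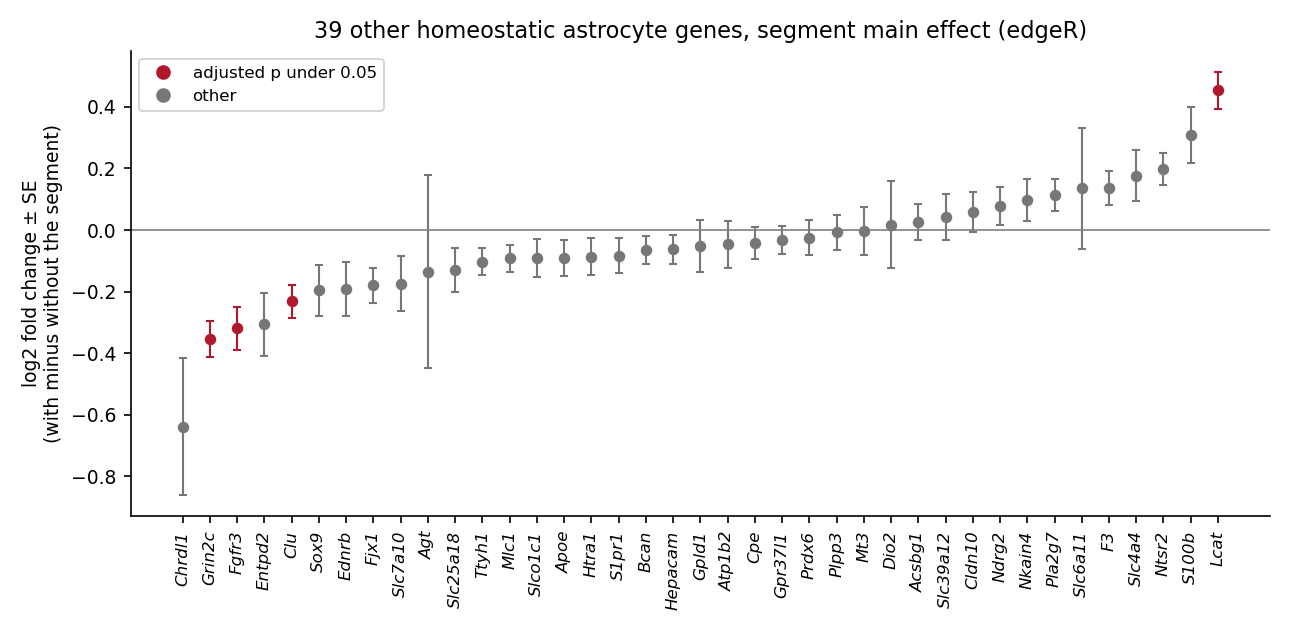
Log2 fold change ± SE for the segment (edgeR, 34 libraries) of 39 of the 40 other homeostatic astrocyte genes, from lowest to highest. Lcat is called higher at 0.45, and Grin2c, Fgfr3 and Clu are called lower; the other 35 shown did not pass.

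The lists around the glutamate, endfoot, gap junction and glycolysis genes held no gene that passed for the segment or the transgenes over the 34 libraries. Among all 17518 genes, 1.38% were called for the segment and 1.59% for the transgenes, so 0 in a list of this size is near the share of all genes. An unadjusted p under 0.05 was found for 2241 and 1848 of all genes. In the 31 libraries 1.89% of all genes were called for the segment. In edgeR, 0 of 15 genes of the glutamate and glutamine cycle were called for the segment (3 unadjusted, 0 by DESeq2, 1 in the 31 libraries) and 0 for the transgenes (5 unadjusted, 0 by DESeq2). Of 13 genes that anchor Aqp4 at the endfoot, 0 were called for the segment (3 unadjusted, 0 by DESeq2) and 0 for the transgenes (1 unadjusted, 0 by DESeq2). Of 10 other connexin and pannexin genes, 0 were called for the segment (3 unadjusted, 0 by DESeq2) and 0 for the transgenes (0 unadjusted, 0 by DESeq2). Of 15 other glycolysis genes, 0 were called for the segment (3 unadjusted, 0 by DESeq2) and 0 for the transgenes (1 unadjusted, 0 by DESeq2).

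A list of phagocytic genes held genes of other bridging proteins, of receptors and of the engulfment machinery. Of its 18 tested genes, 0 were called for the segment (2 unadjusted, 0 by DESeq2), against 1.38% of all genes. Their median log2 fold change for the segment was -0.07. With the transgenes 5 rose, with a median of 0.10 over the list, against 1.59% of all genes called. In the 31 libraries 4 were called, against 1.58% of all genes. Itgb5, an integrin subunit that pairs in the receptor for Mfge8, averaged 26.7 ± 4.64 RPKM with the transgenes and 19.5 ± 2.11 RPKM without them (SD, n = 16 and 18; log2 fold change 0.44, SE 0.08, adjusted p = 0.000349). Itgb3, another integrin subunit, rose by 0.55 (SE 0.12, adjusted p = 0.00624), but averaged only 0.756 RPKM with the transgenes and 0.5 RPKM without them. Axl, a receptor tyrosine kinase for another bridging protein, rose by 0.24 (SE 0.05, adjusted p = 0.00992). C1qa, a complement gene that is also among the microglial markers, rose by 0.85 (SE 0.11, adjusted p = 7.49e-06). The fifth, Abca1, a lipid exporter gene named after its values were seen, was at 0.29 (SE 0.08, adjusted p = 0.045). Its call ended in 26 of 34 fits that left out 1 library each, and in the 31 libraries it was at 0.19 (adjusted p = 0.208). Microglial markers moved with the transgenes too: 8 of 10 rose, or 10 of 10 in the 31 libraries. Their mean level was 5.06 to 6.46 log2 CPM with the transgenes and 5.05 to 5.34 without them. In the 31 libraries it was 5.42 to 6.46 with the transgenes and 5.05 to 5.34 without them, with no overlap. Their part in the rise of the phagocytic genes was not tested. Of 27 tested reactive astrocyte genes 5 rose with the transgenes, or 6 in the 31 libraries, and 0 were called for the segment (6 unadjusted, 1 by DESeq2). Those with the smallest p were Cd14 (0.88, adjusted p = 0.000328), C4b (0.91, adjusted p = 0.00188), Ggta1 (0.54, adjusted p = 0.00939) and Timp1 (1.86, adjusted p = 0.0119). Timp1 averaged only 0.445 RPKM with the transgenes. Gfap, an intermediate filament gene, had the largest p of the 5 (0.75, SE 0.19, adjusted p = 0.0351). The part of microglia in these calls was not tested. The Gfap call ended in 19 of 34 fits that left out 1 library each (adjusted p up to 0.0874), and in the 31 libraries it stood (0.82, adjusted p = 6.39e-06).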

How the data were processed

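The deposited count table, made by the authors, held whole, unnormalised read counts per gene in 34 libraries of polyadenylated RNA. The deposited RPKM table, also made by the authors, equalled those counts divided by library total and gene length (largest relative deviation 6.66e-16 over 12463 genes with at least 20 counts in every library). Per the submitters' processing notes, the tools included HISAT2 2.1.0 and HTSeq 0.6.1 (with SAMtools 1.5, FastQC 0.11.5 and bcl2fastq), on GRCm38. The library kit kept strand, per the labels' protocols, but the sources used here do not say how strand was treated in counting. Genes that overlap Aldh1l1, Aqp4, Glul, Slc1a2 or Slc1a3 may share reads with them. Positions came from GENCODE release 21, which held 99.6% of the gene identifiers. Library totals were 14.9 to 21.1 M counts, and the smallest count of any of the 10 genes in a library was 646, for Gjb6.

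Counts were scaled by TMM and fitted with edgeR 4.0.16 (R 4.3.3; filterByExpr by group; robust quasi-likelihood) in 1 model of 34 libraries with 8 group means and sex. Contrasts were two-sided, and every adjusted p without another tool's name is from this model, with Benjamini-Hochberg adjustment over 17518 genes and a threshold of 0.05. Values for 31 libraries refit the model without the 3 libraries low in hippocampal markers. Other alternatives were DESeq2 1.42.0, its size factors in edgeR, no filter, no sex term, a replicate block, a hippocampal marker covariate, limma 3.58.1 on log2(RPKM + 0.1) and log2(RPKM + 1), the compared groups alone, and leaving out each library. Log2 CPM used a prior count of 2. Correlations between the 10 genes used 100000 permutations within groups. Likeness was computed among genes averaging at least 1 CPM, and the 5 genes with the highest r were named, except 1 that is not reported here.

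The 10 genes, the lists and the tests were chosen with earlier results of these data known. From each list, up to 4 genes with the smallest p past the threshold were named, and Gfap and Abca1 were named after their values were seen. The study's design text gives more 5xFAD-Dp16 sham and 5xFAD tofacitinib mice than were analysed here.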

Additional observations from a re-analysis of the deposited data

Results flagged for a closer look

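In 4 of 60 tests of single groups (10 genes in the 6 groups of 4 or 5 libraries) the highest or lowest library stood apart from the rest, and chance gives about 1 in 20. Mfge8 was at 132 CPM in 5xFAD tofacitinib replicate 2, against 201 to 229 CPM in the other libraries of its group. Slc1a2 was at 3750 CPM in WT tofacitinib replicate 4, against 5160 to 5460 CPM. Glul was at 2230 CPM in WT sham replicate 5, against 2540 to 2660 CPM. Aldh1l1 was at 97.6 CPM in WT tofacitinib replicate 3, against 61.8 to 71.8 CPM. The first and the last of these libraries are among the 3 low in hippocampal markers.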

How the results depend on the processing

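For the segment, Mfge8 kept its direction and passed the threshold under each alternative run, with log2 fold changes from -0.556 to -0.504 and from -0.588 to -0.458 when each library was left out. Counts of called genes among the 10 moved elsewhere. With no filter they were 1 in Dp16 against WT with sham and with tofacitinib, 5xFAD-Dp16 against Dp16 with sham, 5xFAD against WT and 5xFAD-Dp16 against WT with tofacitinib, tofacitinib against sham in 5xFAD-Dp16, and tofacitinib by segment, 2 in 5xFAD-Dp16 against 5xFAD with sham and for the transgenes, and 3 in 5xFAD-Dp16 against WT with sham. DESeq2 gave 1 for the transgenes. Without the 3 libraries, Dp16 against WT with sham and with tofacitinib and 5xFAD-Dp16 against WT with tofacitinib gave 1, as with the marker covariate, and 5xFAD-Dp16 against 5xFAD with sham gave 0. With the compared groups alone, 5xFAD-Dp16 against WT and against 5xFAD with sham gave 0, and Dp16 against WT with sham and 5xFAD-Dp16 against WT with tofacitinib gave 1. Without the sex term, 5xFAD-Dp16 against 5xFAD with sham gave 0. Leaving out each library gave 0 to 2 in 5xFAD-Dp16 against WT with sham, and 0 to 1 in 5xFAD-Dp16 against 5xFAD with sham, 5xFAD-Dp16 against WT with tofacitinib and for the transgenes. Of lists, 7 rather than 4 of the 40 homeostatic genes passed for the segment with no filter and with the covariate. Over all genes, 242 passed for the segment, 415 by DESeq2, 474 with the covariate and 705 with no filter; 279 passed for the transgenes, 884 with no filter; and 168 passed in 5xFAD-Dp16 against WT with sham, 348 by DESeq2, 1270 with no filter, 109 with the replicate block, 85 without the 3 libraries and 0 with the compared groups alone. Signs changed for Mfge8 in 5xFAD against WT with sham (-0.074 to 0.015 leaving out each library) and for the transgenes by segment (0 without the 3 libraries, 0.058 with the covariate, -0.16 to 0.064 leaving out each library). They changed for Kcnj10 in 5xFAD-Dp16 against WT with sham (-0.148 without the 3 libraries, -0.188 to 0.785 leaving out each library) and in tofacitinib by segment (0.017 without the 3 libraries). The cause was not tested. Replicate numbers did not pair libraries: 23 of 98 same-numbered pairs had a correlation over 0.1 (median 0.02), and 6 of 34 libraries correlated best with their own number. With the replicate block, Mfge8 was at -0.504 for the segment (adjusted p = 0.00138). In 5xFAD-Dp16 against 5xFAD with sham 0 of the 10 genes passed with this block, and 28 of all genes. For the transgenes 2 rather than 5 reactive astrocyte genes passed with it. It also ended the call of Clu for the segment (-0.212, adjusted p = 0.0597). For the transgenes it ended the calls of Gfap (adjusted p = 0.17) and Abca1 (adjusted p = 0.182).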
